A study of Mus musculus with 48 samples.

Results

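The 10 mitotic kinesins Kif11, Kif15, Kif22, Kif4, Kif18a, Kif2c, Kif20a, Kif23, Kif20b and Kif14 were followed through the day in epidermal stem cells of young and aged mice. They were chosen by name, and each was read from its probe set of highest mean among those with exactly 1 gene symbol. All 10 were found among the 17097 genes so named. Kif15 and Kif18a lay in the lowest 25% of gene means (below a log2 of 3.96, here called dim), which left 8 kinesins among the 12823 genes tested.

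RNA came from the epidermis of wild type female C57B6/J mice and was hybridised to 1-colour Affymetrix arrays. The young group was 8 weeks of age and the aged group between 102 and 116 weeks. Mice were taken every 4 h from ZT0 to ZT20, 4 per age and time, which gave 48 arrays. ZT counts hours from lights on by convention, and the series compares daily expression between the ages.

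Kinesins are motor proteins that use ATP to act on microtubules. Those of mitosis build the spindle, move chromosomes on it and, after the chromosomes have parted, organise the spindle midzone where the cell divides. Their genes are transcribed mainly in G2 and mitosis, so in proliferating tissue such as the basal epidermis their RNA marks cells about to divide. Many genes of this phase carry a cell cycle genes homology region (CHR), bound by the MuvB complex, near a CCAAT box bound by NF-Y.

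Promoter sequences are shown because the 8 tested kinesins were correlated across arrays, and that of Kif15, which is dim and was only weakly correlated with them, for its likeness to Kif11. RefSeq promoters (GRCm38.p6, 250 bases before to 50 after the annotated start) matched 9 of the 10 by symbol: Kif11, Kif15, Kif22, Kif4, Kif18a, Kif2c, Kif23, Kif20b and Kif14. The letters TTTGAA (the CHR) and CCAAT were searched on both strands, and the matches to the 2 motifs did not overlap. Capitals mark the matches, which read TTCAAA and ATTGG where they lie on the other strand. Sequences run 5′ to 3′ with the gene. Where another transcript of the gene starts further upstream, only 30 bases around the CHR are given.
Kif11, chr19:37376307-37376406 (+): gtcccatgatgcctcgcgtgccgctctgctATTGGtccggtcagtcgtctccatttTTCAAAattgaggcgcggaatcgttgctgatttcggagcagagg
Kif15, chr9:122951006-122951105 (+): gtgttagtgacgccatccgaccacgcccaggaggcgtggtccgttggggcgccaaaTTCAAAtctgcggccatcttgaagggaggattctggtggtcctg
Kif4, chrX:100625990-100626089 (+): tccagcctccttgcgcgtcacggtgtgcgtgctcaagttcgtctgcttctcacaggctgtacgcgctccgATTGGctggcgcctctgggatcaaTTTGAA
Kif22, chr7:127042420-127042449 (-): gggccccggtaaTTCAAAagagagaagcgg
Kif23, chr9:61946780-61946809 (-): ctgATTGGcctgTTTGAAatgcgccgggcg
Kif20b, chr19:34922356-34922385 (+): ccgccattgTTTGAATTTGAAaaccgggag

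Kif11 and Kif15, both of which push the spindle poles apart, had the CHR letters on the same strand and at the same distance, from 19 to 14 bases before the start. Kif20b, a motor of late cytokinesis, held them in 2 adjoining copies. In the 100 bases from 75 before to 25 after the start, TTTGAA stood in 6 of the 9 promoters, against 5.24% of all 32851 promoters in the table and 3.15% of the 13063 of tested genes. CCAAT stood in 4 of the 9 (Kif11, Kif22, Kif23 and Kif4), against 16.8% of all promoters, and all 4 also held TTTGAA, a pair found in 0.947% of all. Over the whole 300 bases, TTTGAA was in 8 of the 9 and in 17.9% of all promoters, and CCAAT in 5 of the 9 and in 37.4%. Among 25 promoters from a list of kinesins that serve transport and other tasks and of their partners, 3 held TTTGAA and 10 held CCAAT in the 300 bases. For Kif14 and Kif2c the table's start lies 1547 and 3852 bases inside the annotated gene. A match describes letters only and does not show a binding site.

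**Figure D1:**
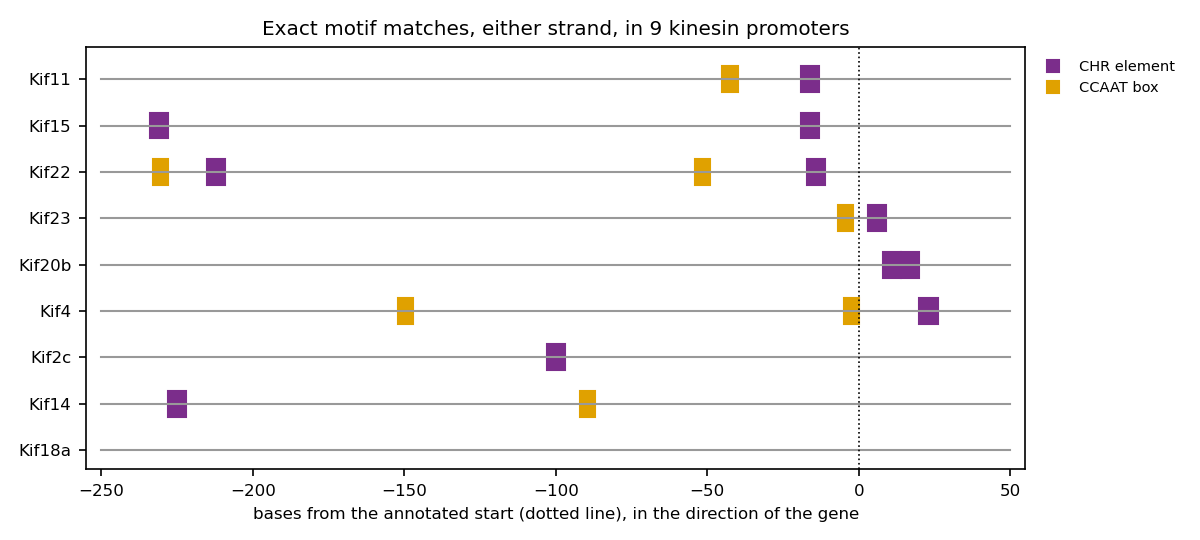
Positions of exact matches to the CHR letters (purple) and to CCAAT (yellow) on either strand in 9 kinesin promoters; the x axis counts bases from the annotated start (dotted line), each row is 1 gene. In 6 genes a CHR match lies within the 100 bases around the start, and Kif18a has none.

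The median log2 value of an array was between 4.78 and 5.04. The 7 basal keratinocyte markers had a mean log2 between 11.6 and 11.8 on every array. Dim were 3 of 6 fibroblast, 3 of 5 endothelial, 4 of 6 Langerhans and myeloid and 4 of 5 melanocyte markers. So were 2 of 7 bulge, 1 of 8 suprabasal and 1 of 5 skeletal muscle markers, but 0 of 5 T cell and 0 of 2 red blood cell markers. The median of the T cell list was 5.30 in young and 5.51 in aged arrays, and that of the red blood cell list 5.76 and 5.83. Some arrays stood apart in the kinesins as a set. Within young ZT0, replicate 3 was highest and replicate 2 lowest of its group in 8 of the 8 tested kinesins, and aged ZT4 replicate 1 was lowest of its group in 8 of 8. The mean of the standardised kinesins was 2.48 in young ZT0 replicate 3, the highest of the 48 arrays, and -1.81 in aged ZT4 replicate 1, the lowest. The 2 proliferation markers Mki67 and Top2a had a mean log2 of 8.28 and 7.75 in young ZT0 replicates 3 and 2, and 6.59 in aged ZT4 replicate 1. Without young ZT0 replicate 3 and aged ZT4 replicate 1, below called the fit without 2 arrays and chosen after seeing the data, some values changed, and these are given beside the results they touch. That fit is one-sided, since it kept the opposite arrays of both groups. These were young ZT0 replicate 2 and aged ZT4 replicate 4, which was highest of its group in 7 of 8 kinesins (mean of the standardised kinesins 1.32).

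In young cells each of the 8 tested kinesins had its highest mean at ZT20, ZT0 or ZT4, and 7 of 8 had their lowest at ZT12 or ZT16 (Kif4 at ZT4). Kif11 was rhythmic with a fitted peak 2.68 times its trough, and Kif20b, Kif23 and Kif14 passed the test with smaller amplitudes. In aged cells no kinesin passed the same test, although Kif11 still varied through the day. Passing at 1 age and not at the other is not a test of a difference. The test of a difference in rhythm was passed by 0 of 8 kinesins and by 0% of all tested genes. In bulk samples, a change in the share of dividing cells and a change in RNA per cell cannot be told apart.

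**Figure D2:**
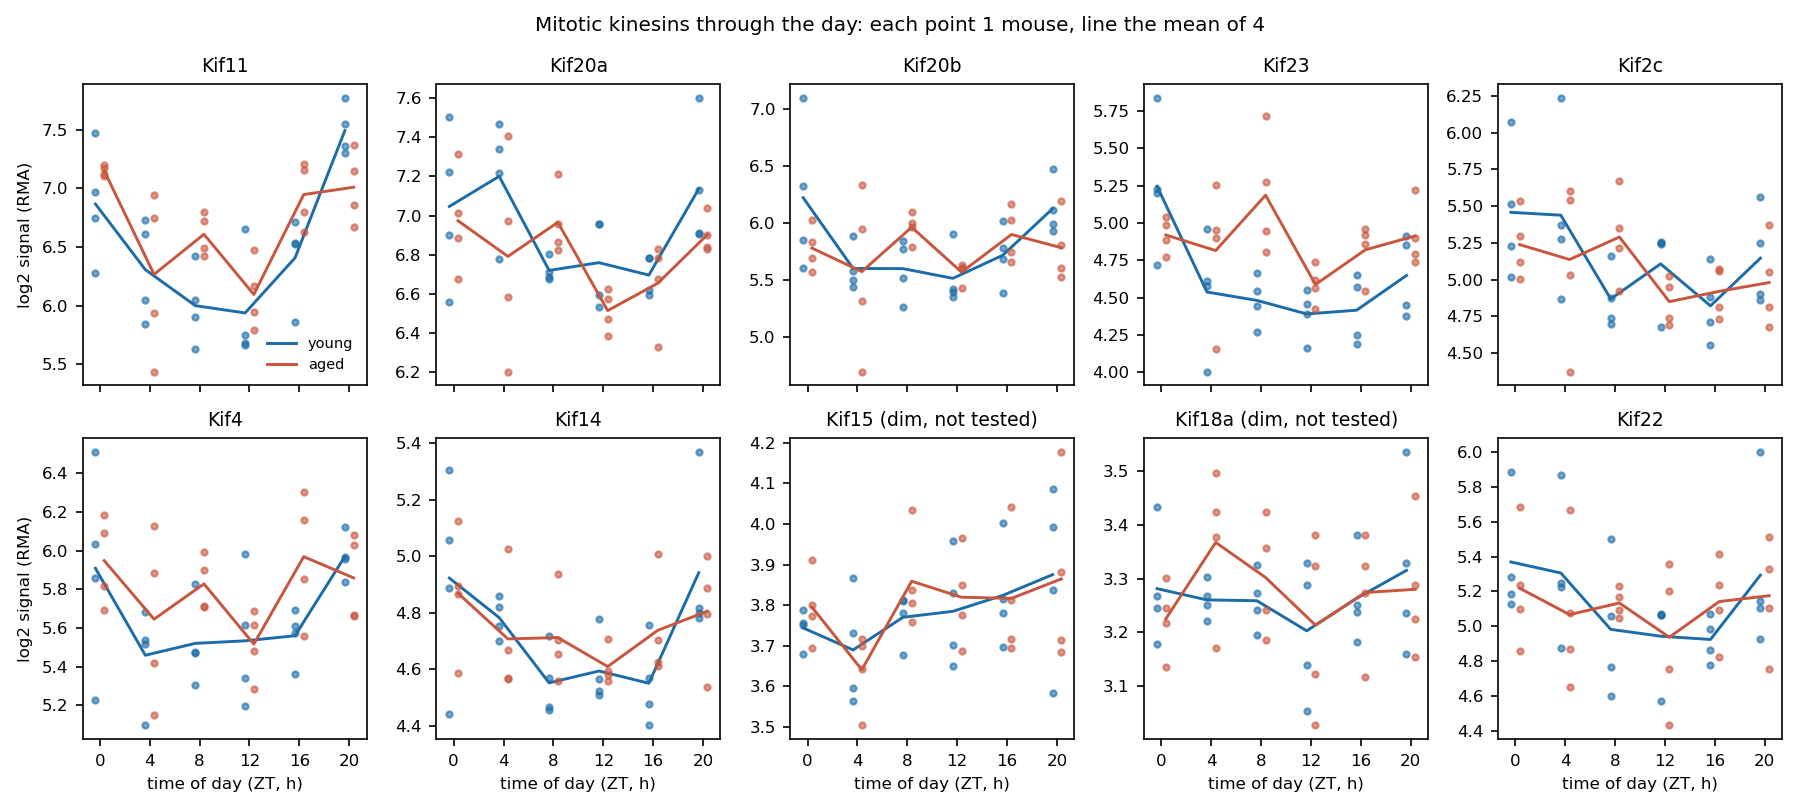
Log2 signal of the 10 kinesins (y axis, each panel with its own range) against time of day (x axis, ZT in h) in young (blue) and aged (red) cells; each point is 1 mouse and each line joins the means of 4 mice. Kif11 in young cells rises from a mean of 5.94 at ZT12 to 7.49 at ZT20, while the dim Kif15 and Kif18a stay between 3.03 and 4.18 on every array.

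Of the motors that separate the spindle poles, Kif11 (chromosome 19, 37376382 to 37421863 in GRCm38) slides antiparallel microtubules apart and is needed for a bipolar spindle. In young cells its log2 values were 6.75, 6.28, 7.47 and 6.97 at ZT0, and 6.05, 6.61, 5.84 and 6.73 at ZT4. They were 6.42, 5.90, 5.63 and 6.05 at ZT8 and 6.66, 5.67, 5.75 and 5.68 at ZT12. At ZT16 they were 6.52, 5.86, 6.71 and 6.54, and at ZT20 7.36, 7.77, 7.30 and 7.55. The ZT20 mice were thus high as a group: the lowest of them lay above every young mouse of ZT4, ZT8, ZT12 and ZT16. From ZT12 to ZT20 the mean rose 2.94 times, and the fitted 24 h cosine had an amplitude (mean to peak, log2) of 0.71 ± 0.12 with a peak at ZT21.31 ± 0.63 (SE; limma F test, adjusted p = 0.000207). This rhythm passed in 58 of 58 alternative fits of its amplitude (adjusted p up to 0.00106), with covariates for other cells (0.00194) and with young arrays fitted alone (0.000746). Its amplitude was 0.68 without young ZT0 replicate 3.

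In aged cells Kif11 stood at 7.17, 7.11, 7.20 and 7.13 at ZT0, and at 5.44, 5.94, 6.75 and 6.94 at ZT4. At ZT8 it was at 6.50, 6.72, 6.80 and 6.43, and at ZT12 at 6.17, 5.95, 6.47 and 5.80. At ZT16 the values were 6.63, 6.80, 7.21 and 7.15, and at ZT20 6.86, 7.37, 7.15 and 6.67. The 4 mice of ZT0 had an SD of 0.04 and those of ZT4 an SD of 0.70, and every ZT0 mouse was above every ZT12 mouse. The aged cosine had an amplitude of 0.44 ± 0.12 and a peak at ZT20.96 ± 1.02 and did not pass (limma, unadjusted p = 0.0021, adjusted p = 0.0962). It did pass with the scores of 5 marker lists of other cells as covariates (amplitude 0.50, adjusted p = 0.0296), but not with aged arrays fitted alone (0.119). With a mean for each time in place of the cosine, Kif11 varied through the day at both ages (adjusted p = 8.19e-05 in young and 0.0111 in aged). The amplitude of aged minus young was -0.27 (95% confidence interval -0.61 to 0.06), and the whole rhythm did not pass the test of a difference (adjusted p = 0.855). A second Kif11 probe set of lower mean gave amplitudes of 0.60 ± 0.10 (young) and 0.33 ± 0.10 (aged) and correlated with the first at r = 0.94 over the 48 arrays.

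Kif15 (chromosome 9, 122951081 to 123018733) works beside Kif11 in keeping the poles apart. Its probe set was dim, between 3.56 and 4.09 in young mice, with a median of 3.78 at both ages and a highest value of 4.18 in aged mice, so the ages overlapped. In a fit with no filter on dim genes its amplitude was 0.07 ± 0.04 in young cells (adjusted p = 0.575), and 0.06 ± 0.04 in aged cells (adjusted p = 0.816).

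Of the motors that act on chromosomes, Kif4 (chromosome X, 100626065 to 100727271) binds chromosome arms and later the midzone. In young cells its values were 6.04, 5.23, 6.51 and 5.86 at ZT0, 5.54, 5.52, 5.10 and 5.68 at ZT4 and 5.96, 6.12, 5.84 and 5.96 at ZT20. The ZT20 mice were all above those of ZT4, while those of ZT0 ran from 5.23 up to the highest young value of the gene, in replicate 3. The fitted peak, ZT21.27 ± 1.31, lay close to that of Kif11, but the amplitude of 0.24 ± 0.08 did not pass (adjusted p = 0.146). Aged Kif4 had a mean of 5.97 at ZT16 and 5.52 at ZT12 and an amplitude of 0.14 ± 0.08 (adjusted p = 0.734).

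Kif22 (chromosome 7, 127027729 to 127042467) pushes chromosome arms away from the poles. Its young values were 5.18, 5.13, 5.89 and 5.28 at ZT0 and 4.98, 5.07, 4.78 and 4.87 at ZT16, so the 4 mice of ZT0 were all above those of ZT16. The amplitude was 0.26 ± 0.09 in young (peak ZT0.30 ± 1.34, adjusted p = 0.160) and 0.09 ± 0.09 in aged cells (adjusted p = 0.894). Its second probe set, of lower mean, gave a young amplitude of 0.26 ± 0.06 with a peak at ZT22.78 and passed (adjusted p = 0.0199), so the call for Kif22 depends on the probe set.

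Kif2c (chromosome 4, 117159633 to 117182624) takes microtubules apart at their ends and frees chromosomes that are wrongly attached. It was at 5.51, 5.02, 6.07 and 5.23 in young mice at ZT0 and at 6.24, 5.28, 4.87 and 5.38 at ZT4, against 4.88, 4.55, 4.71 and 5.14 at ZT16. These groups overlapped, through young ZT0 replicate 2 and young ZT4 replicate 3. Its young amplitude of 0.28 ± 0.10, with a peak at ZT1.35 ± 1.30, did not pass (adjusted p = 0.144), nor did the aged one of 0.19 ± 0.10 (adjusted p = 0.638). Kif18a (chromosome 2, 109280738 to 109341749), which damps the swings of chromosomes at the metaphase plate, was dim, between 3.03 and 3.54 on all 48 arrays.

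The remaining motors serve the midzone and cytokinesis. Kif23 (chromosome 9, 61917277 to 61946810) forms centralspindlin together with Racgap1. In young mice it stood at 5.20, 4.72, 5.84 and 5.23 at ZT0 and at 4.46, 4.55, 4.39 and 4.16 at ZT12. Those groups did not overlap, and the young mean at ZT0 was 1.81 times that at ZT12. The amplitude was 0.33 ± 0.09 in young (peak ZT23.85 ± 1.04, adjusted p = 0.0464) and 0.10 ± 0.09 in aged cells (adjusted p = 0.883). The young rhythm passed in 27 of 57 alternatives (adjusted p up to 0.873), and its amplitude was 0.25 in the fit without 2 arrays. A second Kif23 probe set, whose means of 3.63 and 3.72 are below the dim limit, had a young amplitude of 0.05 and correlated with the first at r = 0.06.

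Kif20b (chromosome 19, 34922335 to 34975750) was at 5.86, 5.61, 7.10 and 6.33 in young mice at ZT0, 5.90, 5.35, 5.42 and 5.39 at ZT12 and 6.12, 6.48, 5.93 and 5.99 at ZT20. The ZT20 mice were above all those of ZT12, and the ZT0 group carried the highest value of the gene, in replicate 3. Its amplitude was 0.36 ± 0.10 in young (peak ZT21.91 ± 1.05, adjusted p = 0.047) and 0.04 ± 0.10 in aged cells (adjusted p = 0.982). The young rhythm passed in 26 of 58 alternatives (adjusted p up to 0.132). Aged minus young, the amplitude differed by -0.31 (95% confidence interval -0.59 to -0.03), the one interval of the 8 that stayed below 0. Without 2 arrays it was -0.23 (-0.45 to -0.004). The test of its whole rhythm, with an unadjusted p of 0.0498, did not pass over all genes (limma, adjusted p = 0.652). Its second probe set passed in young (0.48 ± 0.11, adjusted p = 0.00781) but not in aged cells (0.21 ± 0.11, adjusted p = 0.617).

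Kif14 (chromosome 1, 136466301 to 136555938), which acts at the midbody, was at 4.89, 4.44, 5.30 and 5.06 in young mice at ZT0 and at 4.76, 4.40, 4.57 and 4.48 at ZT16. The ZT0 group overlapped with ZT16 through its replicate 2. Its amplitude was 0.22 ± 0.06 in young (peak ZT23.20 ± 0.97, adjusted p = 0.0276) and 0.10 ± 0.06 in aged cells (adjusted p = 0.673). Kif20a, which brings the Aurkb complex to the midzone, was at 7.47, 7.34, 6.78 and 7.22 in young mice at ZT4. At ZT8 it was at 6.81, 6.68, 6.69 and 6.71, below all the ZT4 mice but replicate 3. Its amplitude was 0.25 ± 0.08 in young (peak ZT0.39 ± 1.18, adjusted p = 0.0937) and 0.18 ± 0.08 in aged cells (adjusted p = 0.533).

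In all, 4 of the 8 tested kinesins were rhythmic in young cells (Kif11, Kif14, Kif23 and Kif20b), where 6.27% of all tested genes were, and all 8 reached an unadjusted p under 0.05, as did 20.7% of all tested genes. In aged cells 0 of 8 were rhythmic by limma, where 1.36% of all tested genes passed. There 1 of 8 (Kif11) was at an unadjusted p under 0.05, a share near the 11.4% of all tested genes. With time as a factor, 2 of 8 varied in young (Kif11 and Kif23, 17.5% of all genes) and 1 of 8 in aged cells (Kif11, 8.36%). The young count rests on few arrays. It was 1 (Kif11) without young ZT0 replicate 3 or without replicate 4, and 6 without replicate 2, when Kif20a and Kif4 joined the 4. Another count than 4 came up in 34 of the 48 fits that left out 1 array. In the fit without 2 arrays the count was 1.

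**Figure D3:**
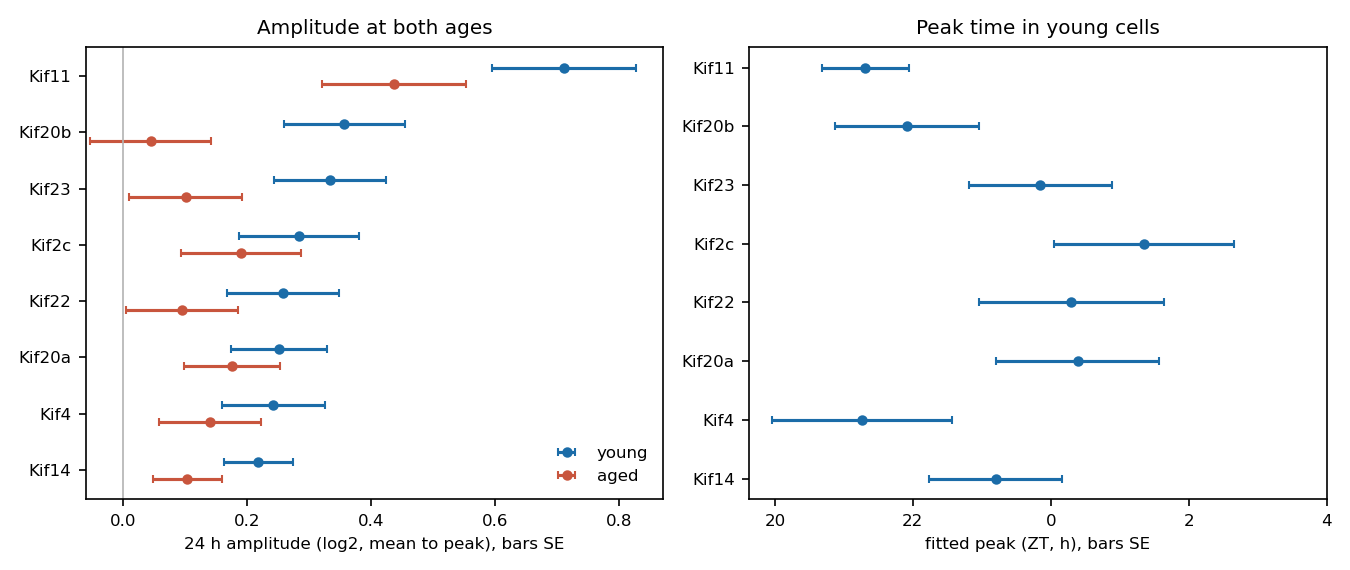
Left, 24 h amplitude on the log2 scale with its SE (x axis) for the 8 tested kinesins in young (blue) and aged (red) cells; right, fitted peak time with its SE in young cells (x axis, ZT in h). Kif11 has the largest amplitude at both ages (0.71 and 0.44), and Kif2c the latest young peak (ZT1.35).

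The amplitude was larger in young than in aged cells for 8 of the 8 tested kinesins, as it was for 59.8% of all tested genes. Without 2 arrays it was larger in young for 6 of 8, and Kif20a and Kif2c turned. The median amplitude of the 8 was 0.27 in young and 0.12 in aged cells, against 0.09 and 0.08 over all tested genes. The test of a difference in rhythm between the ages was passed by 0 of 8 kinesins and by 0% of all genes (limma), with 1 kinesin (Kif20b) and 7.66% of all genes at an unadjusted p under 0.05. With time as a factor 0 of 8 courses differed between the ages, where 2.59% of all genes did, and Kif11 and Kif23 had an unadjusted p of 0.0449 and 0.027, in the range under 0.05 that 15.3% of all genes reached.

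The fitted peaks of the young kinesins are given for all 8, although Kif4, Kif20a, Kif2c and Kif22 did not pass the rhythm test. Relative to Kif11, the fitted peak came 3.08 ± 1.06 h later in Kif20a, 2.54 ± 0.98 h later in Kif23, 4.04 ± 1.30 h later in Kif2c and 2.99 ± 1.31 h later in Kif22 (SE, with the residual correlation of the pair taken into account). Kif14 followed 1.89 ± 0.84 h and Kif20b 0.60 ± 0.68 h after Kif11, and Kif4 lay at -0.04 ± 0.85 h. By these probe sets Kif11, Kif4 and Kif20b peaked earlier than Kif20a, Kif2c and Kif22. The second probe sets of Kif20b and Kif22 peaked together, at ZT22.82 and ZT22.78, so the order of these genes depends on the probe set. Neighbours in this young order, such as Kif23, Kif22 and Kif20a, lay within their errors of each other. In aged cells no kinesin passed the rhythm test. There the fitted peak came 4.33 ± 1.71 h after Kif11 in Kif20a and 6.59 ± 2.26 h after it in Kif2c. Kif4 lay at -0.09 ± 1.51 h and Kif14 at 1.70 ± 1.73 h from Kif11. The aged peaks of Kif23 (6.39 ± 3.65 h), Kif22 (1.66 ± 3.42 h) and Kif20b (-4.17 ± 8.06 h) were too loosely fitted to be placed.

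Correlations across arrays are given as a description, since all genes share the 48 arrays. After each gene was centred within its age, the 28 pairs of tested kinesins had r between 0.40 and 0.84. Within Kif11, Kif4 and Kif20b r ran from 0.78 to 0.84, and within Kif20a, Kif2c and Kif22 from 0.71 to 0.78. Between the sets it ran from 0.40 to 0.64. In young arrays alone the medians were 0.84 and 0.80 within the sets and 0.53 between them. In aged arrays they were 0.70, 0.71 and 0.52, and the ranges overlapped there: 0.69 to 0.86 and 0.52 to 0.77 within the sets and 0.48 to 0.75 between them. The sets were drawn after these values were seen. Kif15 had r between 0.08 and 0.40 with the 8 tested kinesins, and Kif18a between -0.25 and 0.06 with the others. Leaving out young ZT0 replicates 2 and 3 and aged ZT4 replicate 1 gave medians of 0.75 and 0.73 within the sets and 0.38 between them.

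**Figure D4:**
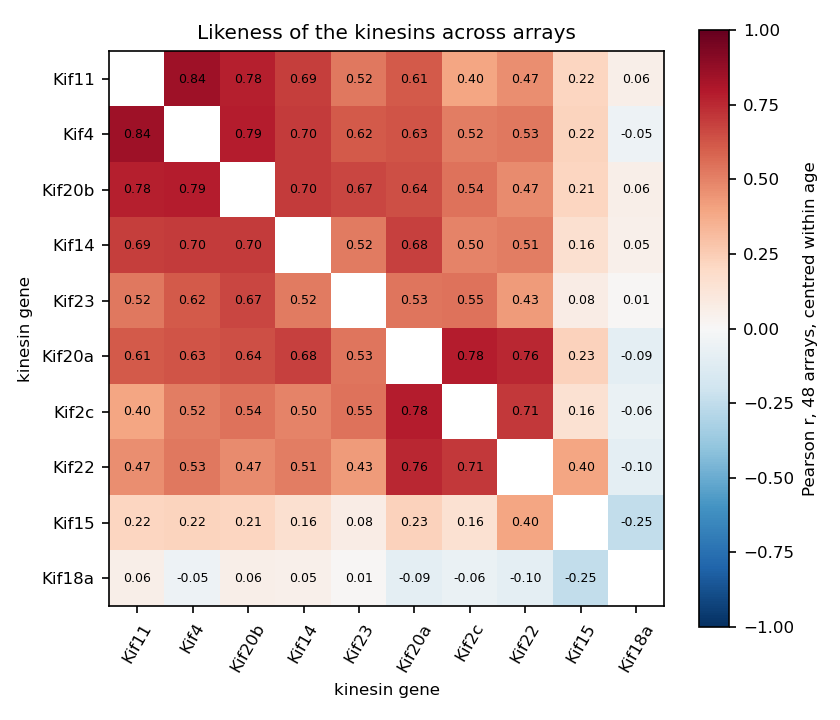
Pearson correlation of each pair of the 10 kinesins (rows and columns) over 48 arrays after centring within age; colour and printed number give r. Kif11, Kif4 and Kif20b (r of 0.78 or more) and Kif20a, Kif2c and Kif22 (r of 0.71 or more) are 2 sets drawn after these values were seen. Kif14 had r of 0.69 to 0.70 with the first set and 0.50 to 0.68 with the second, and Kif23 0.52 to 0.67 and 0.43 to 0.55. Kif15 and Kif18a correlate weakly with the rest.

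Comparing the ages at each time, the largest gap came at ZT8, where the aged mean was higher in 8 of the 8 tested kinesins (58.1% of all tested genes were higher there), with a median difference of 0.34 against 0.03 over all genes. Kif23 was at 5.28, 5.72, 4.95 and 4.81 in aged mice at ZT8 and at 4.67, 4.45, 4.27 and 4.55 in young mice. All 4 aged mice were above all 4 young mice, and the difference of 0.70 ± 0.20 (SE) was the one of the 8 that passed at this time (limma, adjusted p = 0.0484; 2.14% of all genes passed). It ended in 35 of the 48 fits that left out 1 array, among them 7 of the 8 arrays of ZT8, so it lies at the edge of the threshold. By the second Kif23 probe set, which is dim, the difference at ZT8 was 0.26 ± 0.15 and did not pass (limma, adjusted p = 0.520). The groups of Kif11 and Kif20a did not overlap at ZT8 either, with aged above young by 0.61 ± 0.25 and 0.25 ± 0.18 (adjusted p = 0.267 and 0.657). That makes 3 of 8 without overlap in this direction, against 7.72% of all genes.

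At the other 5 times no tested kinesin passed and the groups of all 8 overlapped, where 9.03% of gene and time pairs did not. The shares of all genes that passed were 5.19% at ZT0, 8.21% at ZT4, 1.31% at ZT12, 3.3% at ZT16 and 1.36% at ZT20. At ZT16 the aged mean was higher in 7 of 8 kinesins, with Kif11 at 0.54 ± 0.25, Kif4 at 0.41 ± 0.20 and Kif23 at 0.40 ± 0.20 (limma, unadjusted p between 0.0399 and 0.0492, adjusted p between 0.294 and 0.329). Over all genes 51.9% were higher in aged cells at ZT16, and 15.1% had an unadjusted p under 0.05. At ZT20, when young Kif11 was at its height, the aged mean was higher in 1 of 8 (Kif23; 46.2% of all genes), and Kif11 stood at -0.48 ± 0.25 (adjusted p = 0.473). At ZT4 the lowest difference was that of Kif20a, -0.41 ± 0.18 (limma, unadjusted p = 0.0308, adjusted p = 0.177), where 21.1% of all genes were at an unadjusted p under 0.05. Without 2 arrays it was -0.21 ± 0.17 (limma, adjusted p = 0.5605), and the kinesins higher in aged cells at ZT4 went from 2 to 4 of 8 and those at ZT0 from 2 to 5 of 8. Leaving out the highest young ZT0 array and the lowest aged ZT4 array moves both differences upward by construction.

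**Figure D5:**
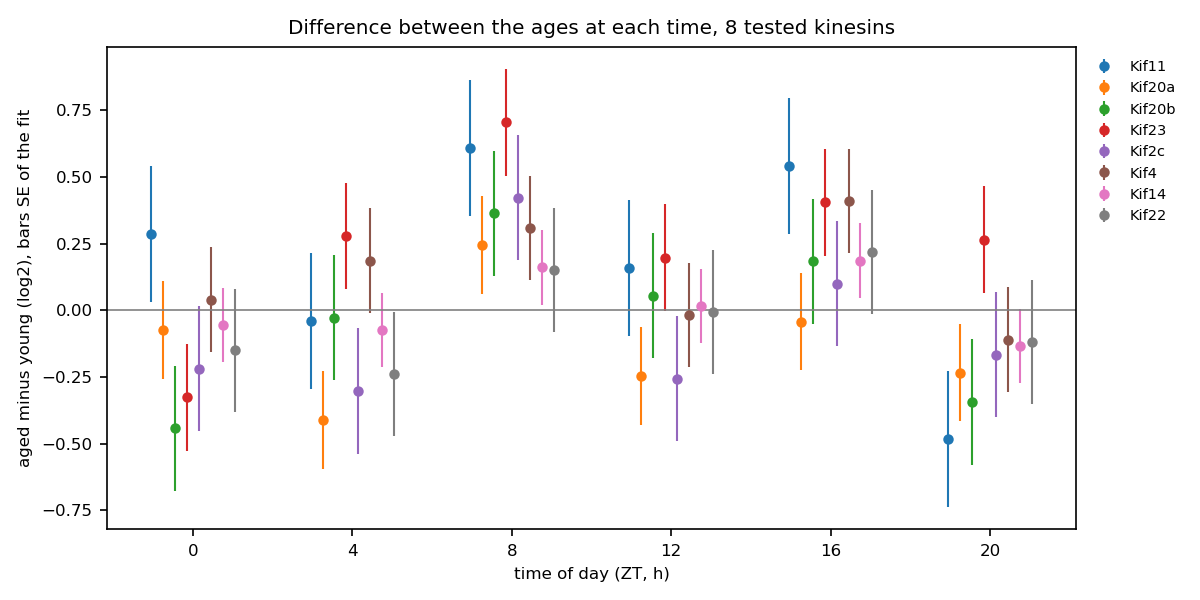
Aged minus young difference on the log2 scale (y axis, bars SE of the fit) for the 8 tested kinesins at each time of day (x axis, ZT in h). At ZT8 all 8 points lie above 0, from 0.15 for Kif22 to 0.70 for Kif23, and at ZT20 7 of 8 lie below.

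Averaged over the day, 1 of the 8 kinesins differed between the ages. The differences of aged minus young ran from -0.13 ± 0.08 in Kif20a to 0.25 ± 0.09 in Kif23 (SE, n = 24 arrays each), with a median of -0.004 against -0.002 over all genes. Kif23 was the one that passed (limma, adjusted p = 0.0434), where 18.6% of all genes did. Its young arrays ran from 4.00 to 5.84 with a median of 4.56, and its aged ones from 4.16 to 5.72 with a median of 4.89, so the ages overlapped widely. Of 57 alternatives, 31 kept the call (adjusted p between 0.00129 and 0.339 over the 57), which was lost with arrays centred on their median or with the second probe set (0.09 ± 0.06). With covariates for the suprabasal, bulge, fibroblast, Langerhans and myeloid, and endothelial lists the difference was 0.21 ± 0.10 and the call was lost as well (adjusted p = 0.155). Leaving out 1 array ended it in 21 of 48 fits. Some cell type markers passed the level test as well, which 18.6% of all genes passed. In the fibroblast, endothelium, Langerhans and myeloid, melanocyte, red blood cell and skeletal muscle lists 0 tested markers did. Of the bulge list 2 of 5 were lower in aged cells (Lhx2 and Postn), and of the basal list 2 of 7 were higher (Krt14 and Itgb4) and 1 lower (Krt15). Of the suprabasal list 1 of 7 was lower (Lor, -0.75), a share near that of all genes. Of the T cell list, which was not among the covariates, 3 of 5 (Cd3e, Cd3g and Thy1) were higher in aged cells, with a mean log2 of the list from 4.95 to 5.51 in young and from 5.18 to 6.24 in aged arrays. The part of the T cell and basal lists in the Kif23 difference was not tested.

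Transcripts of proteins that work with these motors were often rhythmic in young cells. Of 20 spindle and midzone partners, 14 passed in young cells and 2 in aged ones, where 6.27% and 1.36% of all tested genes passed. Among them Anln, an actin binder of the cleavage furrow, had a young amplitude of 0.65 ± 0.09 and a peak at ZT21.61, Nusap1, a microtubule bundler, 0.78 ± 0.11 and ZT23.01, and Prc1, the bundler that recruits Kif4 to the midzone, 0.40 ± 0.07 and ZT21.91 (limma, adjusted p of 6.15e-06, 3.34e-05 and 0.000357). The 2 in aged cells were Nusap1 and Kntc1. Kntc1 is a kinetochore protein that was kept in this list, and it peaked at ZT16.67 in young and ZT15.88 in aged cells. Of 12 kinetochore and checkpoint genes, 10 passed in young cells, led by Spc25, Cenpf and Cenpa. By limma 0 of these 12, which do not include Kntc1, passed in aged cells, where 4 reached an unadjusted p under 0.05 (11.4% of all genes did). Of 12 genes of mitotic entry and its transcription factors, 6 passed in young cells and 1 in aged ones (Lin9 of the MuvB complex, peak ZT13.91). The 6 did not share a young peak. Cdk1 peaked at ZT22.18, Ccna2 at ZT22.29, Ccnb2 at ZT0.72, Cdc25b at ZT3.99, Wee1 at ZT11.91 and Lin9 at ZT15.13. The medians of the young amplitudes were 0.38, 0.40 and 0.29 in these lists. In each of them 0 genes passed the limma test of a difference in 24 h rhythm between the ages, as did 0% of all tested genes. At an unadjusted p under 0.05 in that test were 5 of 20, 2 of 12 and 3 of 12, against 7.66% of all genes. With time as a factor, the courses of 0 of 20, 0 of 12 and 1 of 12 differed between the ages, where 2.59% of all genes did. That 1 was Wee1 (limma, adjusted p = 0.0019).

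Replication genes, taken as a list, did not follow the kinesins across arrays. Of 23, 10 passed in young cells and 16 in aged ones, where 6.27% and 1.36% of all tested genes passed. Chaf1b peaked at ZT12.52 in young and ZT13.51 in aged cells. The list did not share 1 peak: of those that passed in young cells, Mcm2 peaked there at ZT11.16 and Rrm2 at ZT18.96. The mean of the replication genes had r = 0.03 with that of the kinesins over the 24 young and -0.11 over the 24 aged arrays. The same r was 0.95 and 0.92 for the kinetochore list and 0.94 and 0.91 for the spindle partners. Without 2 arrays these were 0.94 and 0.90, and 0.93 and 0.88, and the replication list had 0.03 and -0.35. Of 25 genes of kinesins that serve transport and other tasks and of their partners, 4 passed in young cells and 2 in aged ones (6.27% and 1.36% of all genes). Kifap3, Klc1, Klc3 and Klc4 in this list are not motors, and Kifap3 was among the 4. In this list and the replication list 0 genes passed the limma test of a difference in 24 h rhythm between the ages, as did 0% of all tested genes. Kifc3 was rhythmic at both ages with peaks at ZT12.08 and ZT10.56, and Kif21b at ZT3.18 and ZT4.37. The median young amplitude of the 25 was 0.11. Of 3 further spindle kinesins (Cenpe, Kif2a and Kif24), 0 passed at either age by limma. In young and aged cells 2 and 1 were at an unadjusted p under 0.05, where 20.7% and 11.4% of all genes were. Cenpe had a young amplitude of 0.26 ± 0.09 and a peak at ZT23.64 (adjusted p = 0.180).

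Genes outside the set were ranked by likeness to the mean of the 8 kinesins over the 48 arrays. Predicted genes (names with Gm and a number, Rik, LOC or like an accession) were passed over. Among the rest, the genes most like that mean were the cyclin Ccna2 (r = 0.90), Cdca8 (0.89) and Tpx2 (0.89), then Cdk1, Aurka, Aurkb, Nusap1, Bub1b, Racgap1 and Ube2c (0.86 to 0.82). Without 2 arrays the r of these 10 ran from 0.76 to 0.88. Ccna2 was rhythmic in young cells (0.43 ± 0.10, peak ZT22.29, adjusted p = 0.011) and had 0.31 in aged cells (adjusted p = 0.230). Among the kinesins themselves, Kif20a followed the mean of the other 7 most closely (r = 0.82) and Kif23 least (0.66). Of the marker lists of other cells, the mean of the bulge markers had r = -0.44 with the kinesins in young and 0.33 in aged arrays, and that of suprabasal keratinocytes 0.20 and 0.40 (without 2 arrays -0.41 and 0.35, and 0.29 and 0.16). Fibroblast markers had -0.24 and 0.36, T cell markers 0.22 and 0.34 and red blood cell markers 0.15 and -0.33. Without 2 arrays these were -0.20 and 0.45, 0.02 and 0.47, and 0.05 and -0.08. The other marker lists lay between -0.23 and 0.17 at both ages over all arrays. These correlations share the arrays and are given as a description.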

How the data were processed

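RNA of epidermal stem cells was measured on 48 Affymetrix arrays, 1 per mouse. The authors deposited log2 values per probe set, normalised by RMA per the submitters' processing notes in the labels; the version, and whether all 48 arrays were normalised together, which bears on each difference between the ages, are unknown here. Of 45141 probe sets, 28898 carried 1 gene symbol, 551 several and 15692 none. Each gene was read from its probe set of highest mean, and genes in the lowest 25% of means were left out as dim. limma 3.58.1 in R 4.3.3 fitted a 24 h cosine per age, and a mean per age and time, with Benjamini-Hochberg adjustment over 12823 genes and a threshold of 0.05. Scripts were tested on simulated data. Beside the kinesins, named genes are those most correlated with their mean, with predicted genes passed over, and genes of chosen lists. The members and lists were chosen with earlier results of these data known. Arrays carry no read depth, and their number limits the precision. Alternatives covered filters, probe sets, scaling, weights, covariates and single arrays. Promoters came from RefSeq (GRCm38.p6), and no protein sequence was used.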

Additional observations from a re-analysis of the deposited data

Results flagged for a closer look

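Single arrays far from the other 3 of their group by Dixon's ratio were found in 6 of 120 groups, and chance flags about 1 in 20. Kif11 was at 6.66 in young ZT12 replicate 1, where the nearest other array had 5.75, and Kif20b was at 5.90 in the same array, with the nearest at 5.42. Kif20b was at 5.43 in aged ZT12 replicate 1, below the nearest at 5.604. Kif2c was at 4.68 and Kif22 at 4.57 in young ZT12 replicate 3, below the nearest at 5.24 and 5.06. Kif14 was at 5.37 in young ZT20 replicate 2, above the nearest at 4.81.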

How the results depend on the processing

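The rhythm of Kif11 in young cells passed in 58 of 58 alternative fits of single amplitudes, that of Kif14 in 53 of 56, that of Kif20b in 26 of 58 and that of Kif23 in 27 of 57. These do not include time as a factor, cell mixture covariates or the age fitted alone, which are counted below. The count of 4 rhythmic kinesins in young cells became 2 with no filter on dim genes, with the lower 50% of genes left out, with arrays centred on their median, with cyclic loess, with the replicate number as a block, with time as a factor and with cell mixture covariates. It became 1 with the age fitted alone and with 2 arrays left out together, the latter chosen after seeing the data, and ranged from 1 to 6 when single arrays were left out. The aged count of 0 became 1 (Kif11) with time as a factor and with cell mixture covariates. The count of 1 for the level became 0 with no filter, with the lower 50% left out, with median centring, with cyclic loess, with the replicate block and with cell mixture covariates. The count of 1 at ZT8 became 0 with no filter, with the lower 50% left out, with median centring, with cyclic loess and with the replicate block. The count of 0 at ZT16 became 1 with array weights. Without single arrays, the level and ZT8 counts ranged from 0 to 1, and that at ZT4 from 0 to 1. With the lower 50% left out only 4 kinesins were tested. Kif14 and Kif23 were not among them, and Kif23 was the kinesin called for the level and at ZT8. Their calls could not be kept in that fit, so its counts do not show whether they are sensitive to the filter. The cause of the other changes was not tested. Replicate numbers did not pair the arrays: same-numbered arrays had a mean residual correlation of -0.00074, and 15 of 48 arrays correlated best with their own number.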
